A study of Mus musculus with 14 samples.

Results

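Cthrc1, Mdk, Lcmt2 and Ly6k are 4 of the 24340 genes listed in each library of male germ cells from mouse testis. They were picked from these data for a large difference between double-knockout and control cells at postnatal day 7 (P7) beside a much smaller or no rise at day 3 (P3). The levels of all 4 genes in both age-matched contrasts were used in that choice, which named no fold or p-value as a threshold. Their values in these contrasts, and in the difference between the contrasts, are therefore given as a description with no test. All 4 genes passed the filter on low values, which kept 14772 genes.

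The working name of the group, genes that rise only at day 7, describes Mdk and Lcmt2 relative to their controls, describes Cthrc1 in part and goes against the Ly6k levels. Mdk and Lcmt2 lay lower in the P3 double knockout than in its control, whereas Cthrc1 and Ly6k lay higher there in both libraries. For Ly6k the double-knockout levels at P3 and P7 overlapped, and it was the P7 control that stood apart.

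RNA was sequenced from 14 libraries of postnatal male germ cells of C57BL/6 mice in 7 groups of 2. The P3 groups comprised wild-type cells (P3 WT), for which no Cre is named, controls carrying Vasa-Cre with 1 deleted copy each of Jmjd1a and Jmjd1b (P3 Ctrl; Jmjd1a-/+; Jmjd1b-/+), Jmjd1a-/-; Jmjd1b-/+ (P3 Jmjd1aKO), Jmjd1a-/+; Jmjd1b-/- (P3 Jmjd1bKO) and Jmjd1a-/-; Jmjd1b-/- (P3 DKO). At P7 the control genotype (P7 Ctrl) and the double knockout (P7 DKO) were measured. Every group but P3 WT carries Vasa-Cre, which drives recombination in germ cells, so each control already lacks 1 copy of both genes. Neither a cell sort nor the animal behind each replicate is described in the labels, so p-values may measure technical spread only.

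Jmjd1a and Jmjd1b, listed as Kdm3a and Kdm3b, encode demethylases of histone H3 lysine 9, a residue whose methylation marks silent chromatin. Postnatal germ cells of these ages are prospermatogonia and early spermatogonia, which either keep a stem cell state or start to differentiate in response to retinoic acid. Mdk encodes midkine, a secreted heparin-binding growth factor that binds syndecans and other cell surface receptors. Cthrc1 encodes a secreted collagen triple helix repeat protein that binds Wnt proteins and Frizzled receptors and favours the planar cell polarity branch of Wnt signalling. Lcmt2 (TYW4) encodes a methyltransferase of the wybutosine pathway, which builds a modified guanosine beside the anticodon of phenylalanine tRNA. Ly6k encodes a GPI-anchored protein of the Ly6 family that acts with TEX101 in the maturation of the sperm protein ADAM3.

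Levels are RPKM (reads per kilobase of transcript, scaled to the mapped reads of the library) as the authors deposited them. The files analysed here hold no counts, and the depth of a library, estimated from steps between low values, was between 13.5 and 50.2 M (mega) fragments. Replicates of a group correlated across genes at Pearson r 0.967 to 0.989. Kdm3a was lower in P3 DKO (12.1 and 14.3 RPKM against 28.4 and 26.3) and in P7 DKO (8.97 and 7.59 against 27.2 and 27.1), as was Kdm3b. In 2 libraries, P3 Jmjd1aKO replicate 2 and P3 Jmjd1bKO replicate 2, the summed level of 12 Sertoli cell markers was 985 and 1200 RPKM, against 61.1 to 264 RPKM in the other 12. The cells are labelled as germ cells, and 8 germ cell genes summed to between 1150 and 1550 RPKM in every library. Fewer cells of a type and less RNA per cell cannot be told apart in such bulk libraries.

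Of the 4 genes only Lcmt2 was matched in the RefSeq promoter table. It is shown because its start region is shared with the oppositely oriented gene Adal, whose RNA is compared with that of Lcmt2 further on. The sequence runs 5′ to 3′ on the minus strand over the 250 bases before the RefSeq start, at chr2:121140699-121140948 (GRCm38.p6). Capitals mark the letters AGGTCA, 1 of 4 motifs searched on both strands.
Lcmt2: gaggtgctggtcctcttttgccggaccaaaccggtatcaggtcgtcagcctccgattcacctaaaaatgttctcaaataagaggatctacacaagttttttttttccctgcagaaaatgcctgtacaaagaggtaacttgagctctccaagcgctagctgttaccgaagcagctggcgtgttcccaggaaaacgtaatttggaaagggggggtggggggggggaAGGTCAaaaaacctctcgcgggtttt

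AGGTCA is the core letter string of many nuclear receptor elements, and 14% of 32851 promoter windows of the same length hold it or its complement TGACCT. The window held no CACGTG (6.02% of windows), no GCGGGA (16.9%) and no GGGCGG (32.7%). It held 10 CG dinucleotides, where the median window held 6. These are matches of letters and not measured binding sites.

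Mdk (ENSMUSG00000027239.14, minus strand of chr2:91929805-91932297, GRCm38) was the most abundant of the 4 genes in P7 DKO per length of transcript. It stood at 111 and 139 RPKM in P7 DKO and at 22.2 and 18.2 RPKM in P7 Ctrl. The 2 groups were far apart, and the ratio of their means was 6.18 (125 ± 19.9 against 20.2 ± 2.79 RPKM, SD, n = 2 each). At P3 the order was the other way round, with 22.9 and 19.7 RPKM in P3 DKO against 30.7 and 41.8 RPKM in P3 Ctrl. P3 DKO therefore overlapped P7 Ctrl, and these were the groups with the lowest means. P3 WT lay above P3 Ctrl, at 58 and 43.3 RPKM. The single knockouts were split by replicate, with 28.9 and 85.2 RPKM in P3 Jmjd1aKO and 36 and 101 RPKM in P3 Jmjd1bKO. The high value of each pair belongs to the library with high Sertoli markers, and even the higher of them, 101 RPKM, was below both P7 DKO libraries.

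Cthrc1 (ENSMUSG00000054196.7, plus strand of chr15:39076932-39087121) was low in 6 of the 7 groups. It stood at 23.3 and 30.1 RPKM in P7 DKO and at 0.874 and 0.979 RPKM in P7 Ctrl, the group with the lowest mean. The ratio of the means was 28.8 (26.7 ± 4.84 against 0.926 ± 0.0744 RPKM, SD, n = 2 each). With a transcript of 1166 bases, the P7 Ctrl values correspond to about 22 and 28 fragments and the P7 DKO values to about 614 and 770. At P3 the gene was measured at 2.58 and 3.83 RPKM in P3 DKO against 1.78 and 1.66 RPKM in P3 Ctrl, a ratio of 1.86 with no overlap. P3 DKO thus held the second place in the order of means, apart from both P7 DKO and the remaining groups. P3 Jmjd1aKO (2.06 and 1.6 RPKM), P3 Jmjd1bKO (1.44 and 1.99 RPKM) and P3 Ctrl overlapped each other, and P3 WT lay below them at 0.972 and 1.26 RPKM.

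Lcmt2 (ENSMUSG00000074890.4, minus strand of chr2:121128307-121140653) followed Mdk across the groups. It stood at 68.7 and 88.5 RPKM in P7 DKO and at 16.4 and 15.3 RPKM in P7 Ctrl, a ratio of means of 4.97 (78.6 ± 13.9 against 15.8 ± 0.758 RPKM, SD, n = 2 each). In P3 DKO it was at 14.5 RPKM in both libraries, the lowest of all groups, against 26.3 and 36.8 RPKM in P3 Ctrl. P3 WT was high, at 87.1 and 59.5 RPKM, and overlapped P7 DKO. The single knockouts again split by replicate, with 22 and 50.6 RPKM in P3 Jmjd1aKO and 27.1 and 78.2 RPKM in P3 Jmjd1bKO. The P7 DKO libraries of Lcmt2 were thus far above their own control, and 1 of them was above both P3 WT libraries and 1 between them.

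Ly6k (ENSMUSG00000044678.11, minus strand of chr15:74796874-74799986) was the gene whose P7 control was lowest relative to all other groups. It stood at 11.7 and 19.6 RPKM in P7 DKO and at 0.368 and 0.825 RPKM in P7 Ctrl, a ratio of means of 26.3 (15.7 ± 5.62 against 0.596 ± 0.323 RPKM, SD, n = 2 each). The P7 Ctrl values rest on about 6 and 16 fragments of a 791-base transcript, so the size of this ratio is imprecise from counting alone. In P3 DKO the gene was at 18.9 and 15.6 RPKM against 10.3 and 7.61 RPKM in P3 Ctrl, a ratio of 1.93. The mean of P7 DKO was 0.907 times that of P3 DKO, and the libraries overlapped. P3 Jmjd1aKO held 13.5 and 6.28 RPKM, P3 Jmjd1bKO 10.4 and 2.7 RPKM and P3 WT 3.86 and 4.99 RPKM. Every library of the 6 other groups exceeded both P7 Ctrl libraries.

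**Figure D1:**
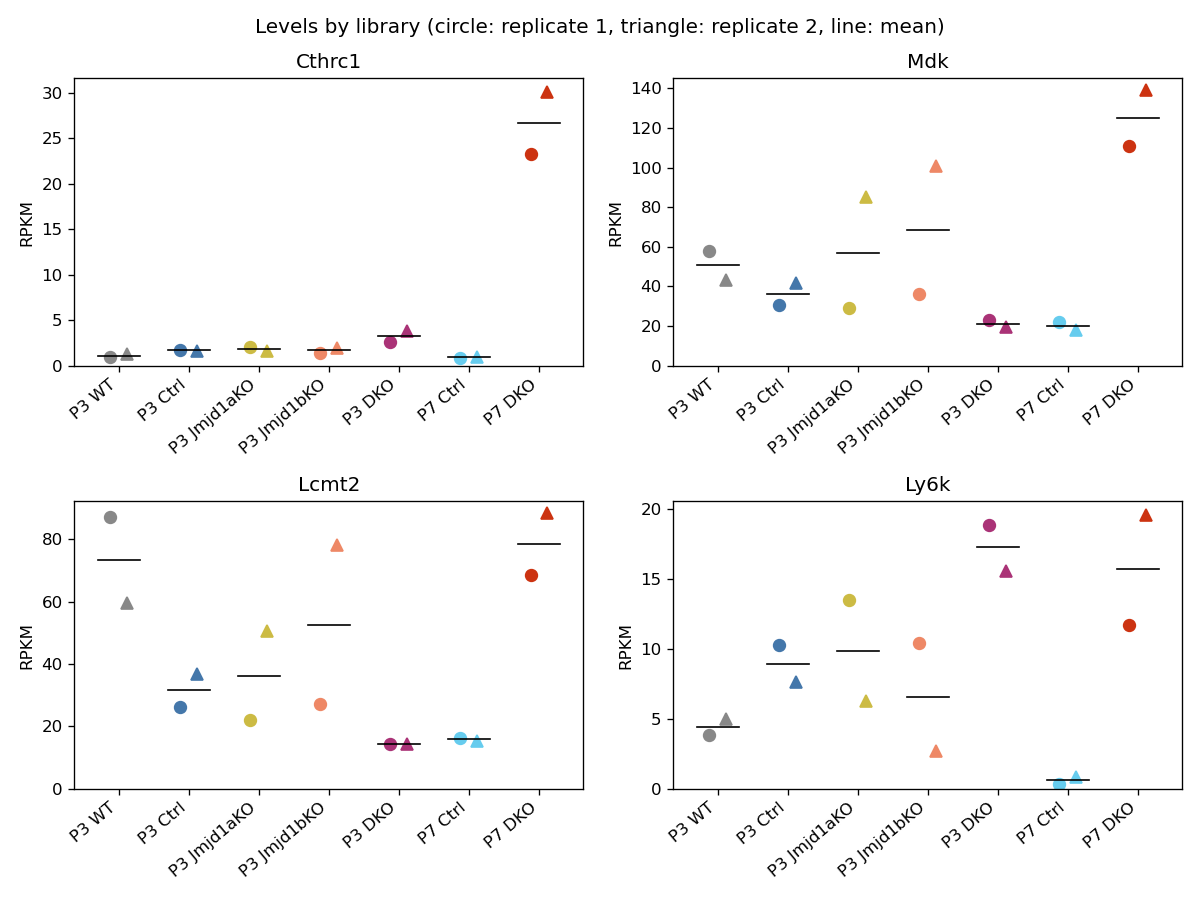
RPKM of Cthrc1, Mdk, Lcmt2 and Ly6k in each of the 14 libraries (circle, replicate 1; triangle, replicate 2) with the group mean (line), 1 panel per gene on a linear axis from 0. Both P7 DKO libraries are above all others for Cthrc1 and Mdk, whereas Lcmt2 overlaps P3 WT (87.1 RPKM in replicate 1) and Ly6k overlaps P3 DKO (18.9 RPKM in replicate 1).

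On the log2(RPKM + 1) scale of the model, the differences between P7 DKO and P7 Ctrl were 3.84 ± 0.20 (SE) for Cthrc1, 3.36 ± 0.50 for Ly6k, 2.57 ± 0.51 for Mdk and 2.23 ± 0.47 for Lcmt2. This scale understates the ratio of low genes. Ranked by this change among 14772 genes, Cthrc1 was at rank 19, Ly6k at 28, Mdk at 62 and Lcmt2 at 83. The differences between P3 DKO and P3 Ctrl were 0.61 ± 0.20 for Cthrc1, 0.88 ± 0.50 for Ly6k, -0.73 ± 0.51 for Mdk and -1.05 ± 0.47 for Lcmt2. The P7 difference exceeded the P3 difference by 3.30 ± 0.73 for Mdk, 3.29 ± 0.67 for Lcmt2, 3.22 ± 0.28 for Cthrc1 and 2.47 ± 0.70 for Ly6k. Mdk and Lcmt2 owe part of that gap to their lower P3 DKO level, and Ly6k has the smallest gap.

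The background against which these values stand was broad. At P7, 17.4% of genes tested passed as higher and 16.1% as lower (limma, Benjamini-Hochberg adjusted p below 0.05). At P3 the shares were 2.18% and 2.29%, and 12.2% of genes passed with a P7 change above the P3 change and 10.7% with one below it. Both P7 DKO libraries lay above both P7 Ctrl libraries for all 4 genes, as for 38.1% of genes tested. They lay above all 12 other libraries for Cthrc1 and Mdk, as for 19.1% of genes tested. At P3 both DKO libraries lay above both controls for Cthrc1 and Ly6k (30.8% of genes) and below them for Mdk and Lcmt2 (27.9%). The choice of the 4 genes used these contrasts, so nothing is read from their counts in them.

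**Figure D2:**
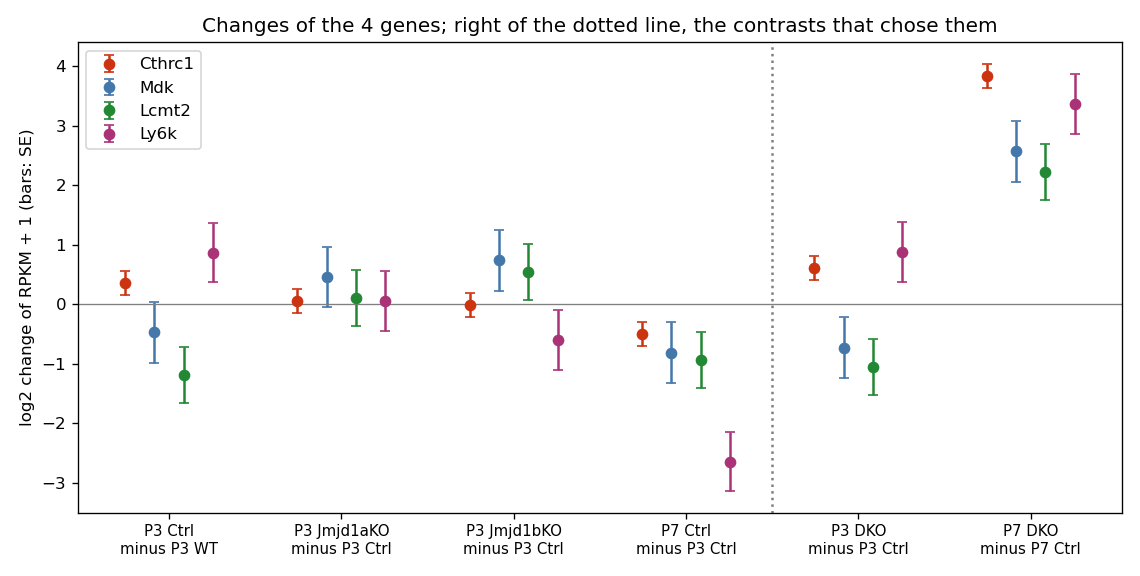
Log2 change ± SE of the 4 genes on the log2(RPKM + 1) scale in 6 comparisons, with those that chose the genes right of the dotted line. At P7 the changes run from 2.23 (Lcmt2) to 3.84 (Cthrc1), and at P3 from -1.05 (Lcmt2) to 0.88 (Ly6k). The lowest value is that of Ly6k from P3 Ctrl to P7 Ctrl, at -2.64, between groups that served as controls in the choice.

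The controls themselves differed with age in these genes. From P3 Ctrl to P7 Ctrl the change was -2.64 ± 0.50 (SE, log2 scale) for Ly6k, -0.93 ± 0.47 for Lcmt2, -0.81 ± 0.51 for Mdk and -0.50 ± 0.20 for Cthrc1. For all 4 genes both P7 Ctrl libraries lay below both P3 Ctrl libraries, which was the case for 38.6% of genes tested. By limma 13.4% of genes tested passed as lower and 9.94% as higher with age. Both groups are the controls of the contrasts that chose the genes, and a low P7 control by itself enlarges a P7 difference. The age changes of the 4 genes are therefore a description with no test.

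The comparisons among P3 groups other than P3 DKO were not used in the choice, although they share the P3 Ctrl libraries with it. None of the 4 genes passed between P3 Ctrl and P3 WT, where 0.704% of genes did. Lcmt2 came closest, with -1.18 ± 0.47 (adjusted p = 0.152, limma), and both P3 WT libraries were above both P3 Ctrl libraries. Without the 2 libraries with high Sertoli markers its change was -1.18 ± 0.21 and passed (adjusted p = 0.0192, limma), in a fit in which 2199 of 14772 genes passed. The changes were -0.47 ± 0.51 for Mdk (adjusted p = 0.576), 0.36 ± 0.20 for Cthrc1 (0.262) and 0.87 ± 0.50 for Ly6k (0.285). P3 WT lay above P3 Ctrl in both libraries for Mdk and Lcmt2 (29.5% of genes) and below it for Cthrc1 and Ly6k (34%). The summed Sertoli markers were also higher in P3 WT (144 and 209 RPKM) than in P3 Ctrl (74.4 and 61.1 RPKM). Estimated depth was lower in P3 WT (13.5 and 14.9 M fragments) than in P3 Ctrl (38.8 and 43.7 M). The part of either in the Mdk and Lcmt2 values was not tested.

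Loss of either gene alone moved none of the 4 past the threshold, in comparisons where very few genes passed. In P3 Jmjd1aKO against P3 Ctrl, where 0.0338% of genes passed, the changes were 0.05 for Cthrc1 (adjusted p = 0.959), 0.46 for Mdk (0.795), 0.10 for Lcmt2 (0.969) and 0.06 for Ly6k (0.986). In P3 Jmjd1bKO, where 0.0203% passed, they were -0.01 for Cthrc1 (adjusted p = 1.0), 0.74 for Mdk, 0.55 for Lcmt2 and -0.60 for Ly6k (each 0.965). The SEs, of up to 0.51, were as large as many of these values. The sign of several of these values changed when 1 or 2 libraries were left out. Without both libraries with high Sertoli markers Mdk stood at -0.30 and Lcmt2 at -0.48 in P3 Jmjd1aKO, and Lcmt2 at -0.19 and Ly6k at 0.21 in P3 Jmjd1bKO. Ly6k in P3 Jmjd1aKO stood at -0.44 without replicate 1 of that group and at -0.14 without P3 Ctrl replicate 2, and Lcmt2 there at -0.13 without P3 Ctrl replicate 1. Cthrc1 stood at -0.06 in P3 Jmjd1aKO without its replicate 1, and in P3 Jmjd1bKO at 0.14 without its replicate 1 and at 0.02 without P3 Ctrl replicate 1.

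Mdk and Lcmt2 shared a pattern across libraries that Cthrc1 and Ly6k did not. Over the 14 libraries the Pearson correlation of log2(RPKM + 1) was 0.92 between Mdk and Lcmt2, and 0.91 over the 12 libraries other than P7 DKO. Cthrc1 and Ly6k correlated at 0.56, and at 0.76 without P7 DKO. The 4 cross pairs ran from 0.07 to 0.6 over all libraries and from -0.31 to -0.06 without P7 DKO. These coefficients are a description, since libraries share groups, depth and cell makeup.

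The 4 libraries in which Mdk and Lcmt2 were highest at P3, both of P3 WT and the replicate 2 libraries of the single knockouts, were those with the most Sertoli transcripts, at 144 RPKM of the summed markers or more. These 4 libraries also had the lowest estimated depth at P3. It was 13.5 to 26.5 M fragments, against 38.8 to 50.2 M in the other P3 libraries. At P7 the 12 Sertoli markers summed to 194 and 216 RPKM in P7 Ctrl and 133 and 264 RPKM in P7 DKO, so the groups overlapped, while Mdk and Lcmt2 differed by the 6.18 and 4.97 times given above. None of the 12 markers passed in P7 DKO and their median change was -0.04. None passed in P3 Jmjd1aKO either, at a median of 2.01. The fit shares its spread over all groups, and the 2 libraries with high Sertoli markers widen it for these genes. The lack of calls therefore says little. The part of Sertoli transcripts or of depth in the levels of both genes was not tested. Inha, a Sertoli hormone subunit, was at 11.8 and 15.9 RPKM in P7 Ctrl and 14.4 and 19.5 RPKM in P7 DKO. Clu, the other marker named by rule, was at 50.8 and 57.2 RPKM in P7 Ctrl and 38.8 and 81.8 RPKM in P7 DKO. In each P7 group 1 of the 12 markers was below 1 RPKM in both libraries and none was at 0 in both.

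**Figure D3:**
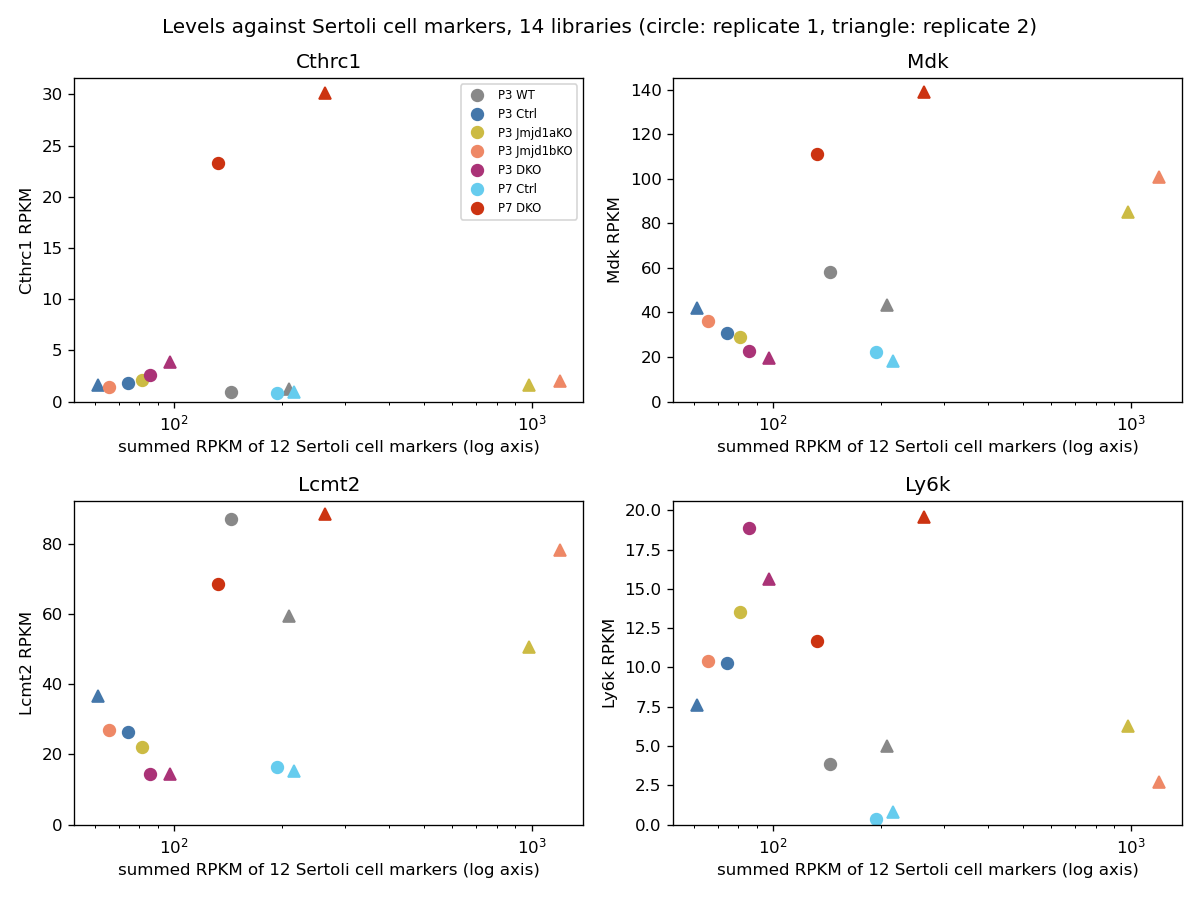
Level of each of the 4 genes (RPKM, linear axis) against the summed RPKM of 12 Sertoli markers (log axis), 1 point per library (circle, replicate 1; triangle, replicate 2; colour, group). The 2 libraries at 985 and 1200 RPKM of Sertoli markers hold high Mdk (85.2 and 101 RPKM), and the P7 DKO libraries hold higher Mdk (111 and 139 RPKM) at marker sums of 133 and 264 RPKM.

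Cthrc1 is known from matrix-producing stromal cells. A set of 12 stromal and smooth muscle markers summed to 22 and 22.3 RPKM in P7 Ctrl and to 10 and 8.96 RPKM in P7 DKO, with 9 of the 12 below 1 RPKM in both libraries of each group. In P7 DKO, 2 of the 12 were at 0 in both libraries. Of the 11 tested, 2 fell, none rose and the median change was 0.00, and the lower sum was carried by the collagen gene Col1a1 (14.1 and 14.3 against 5.1 and 2.83 RPKM) and Pdgfra (3.97 and 4.01 against 0.849 and 1.43 RPKM). In the 2 libraries with high Sertoli markers the stromal sum was 84.9 and 85.3 RPKM, and Cthrc1 was at 1.6 and 1.99 RPKM there. The 8 endothelial markers summed to 28.9 and 34.5 RPKM in P7 Ctrl and 17.5 and 16.2 RPKM in P7 DKO. The 8 leukocyte markers summed to 18 and 17.8 against 8.08 and 4.03 RPKM, a difference carried by Fcer1g (15.1 and 14.5 against 2.98 and 1.55 RPKM). Of the 5 tested, 1 fell, and Ptprc, the general leukocyte marker, was at 0.135 and 0.0582 against 0.935 and 0.454 RPKM. The part of these cells in the Cthrc1 level was not tested. The 7 Leydig cell markers summed to 4.5 and 3.53 against 3.59 and 5.64 RPKM.

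The germ cell state differed between the P7 groups, beside all 4 genes. Of 22 markers of undifferentiated spermatogonia 17 fell and 1 rose in P7 DKO, with a median change of -2.14 beside 0.02 over all genes tested. Of all genes tested 16.1% fell and 17.4% rose. The 22 markers summed to 1200 RPKM in both P7 Ctrl libraries and to 505 and 284 RPKM in P7 DKO replicates 1 and 2. All 4 chosen genes were higher in P7 DKO replicate 2 than in replicate 1. The share of all genes tested in that order was not counted, so nothing is read from it. Plvap fell by 5.46 and Foxc2, a transcription factor of quiescent stem cells, by 4.37 on the log2 scale (adjusted p at most 1.6e-05, limma). Of 13 markers of differentiating spermatogonia 7 rose and 1 fell, with a median of 0.71. Dmrtb1, a regulator of the switch to meiosis, rose from 7.86 and 9.5 to 143 and 154 RPKM, and Stra8, a retinoic acid target, from 61 and 56 to 172 and 276 RPKM. At P3, 2 of the 22 rose and 2 fell, and 1 of the 13 rose and 2 fell (2.18% and 2.29% of all genes tested). The part of this shift in the levels of the 4 genes was not tested.

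Midkine binds several surface proteins, and these did not move in 1 direction. Of 14 listed genes for the related growth factor pleiotrophin and the receptors of both, 10 were tested. In P7 DKO 2 rose and 2 fell (17.4% and 16.1% of all genes tested), with a median change of 0.07. Leaving out either P7 Ctrl library or P7 DKO replicate 2 left 1 and 1, and leaving out P7 DKO replicate 1 left 1 that rose and 4 that fell. Syndecan genes went opposite ways, as Sdc4 fell from 256 and 262 to 58 and 55.3 RPKM (-2.17 ± 0.15, adjusted p = 2.2e-05, limma) and Sdc1 rose from 15.1 and 16.3 to 26.2 and 28.9 RPKM (0.78 ± 0.13, adjusted p = 0.00145, limma). In P3 DKO both fell, Sdc4 by 0.78 and Sdc1 by 0.53 (adjusted p = 0.0317 and 0.0466, limma). These P3 calls were not followed through the alternatives, and the P3 DKO count fell from 661 to 17 with only the groups compared. Notch2 fell by 0.74 and Ncl, which encodes nucleolin, rose by 0.40 at P7. These last calls were lost on leaving out either P7 Ctrl library or P7 DKO replicate 2, with adjusted p from 0.0505 to 0.166. Ncl was also lost without P7 DKO replicate 1, either P3 DKO library or either P3 WT library (0.0523 to 0.147), with no filter (0.0619) and with quantile normalization, where its change was 0.17 (0.269). Notch2 was also lost with only the groups compared (adjusted p = 0.0852, limma). Pleiotrophin (Ptn) was at 0.154 and 0.0687 RPKM in P7 DKO and was below the filter.

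The Wnt and planar cell polarity genes that Cthrc1 works with moved in both directions at P7. Of 24 listed genes 23 were tested, and 5 fell and 2 rose in P7 DKO with a median of -0.12, where 16.1% of all genes tested fell and 17.4% rose, while none passed in P3 DKO. The count was 2 lower and none higher without P7 Ctrl replicate 2, and 2 and 2 without P7 DKO replicate 2. The ligand Wnt5b fell from 3.58 and 3.84 to 0.792 and 0.587 RPKM (adjusted p = 0.00135, limma) and the polarity gene Prickle1 from 12.2 and 12.3 to 5.4 and 3.9 RPKM (adjusted p = 0.00188, limma). The Frizzled receptors differed in direction. Fzd2 fell from 5.57 and 5.42 to 1.43 and 1.24 RPKM (adjusted p = 0.0131, limma) and Fzd6 rose from 1.87 and 1.32 to 5.63 and 4.19 RPKM (adjusted p = 0.00535, limma). With quantile normalization Fzd2 did not pass (adjusted p = 0.0522, limma). The Fzd2 call was lost without either P7 Ctrl library or P7 DKO replicate 2 (adjusted p = 0.0637 to 0.0688, limma) and the Fzd6 call without P7 Ctrl replicate 2 (adjusted p = 0.051, limma).

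Most other genes of the wybutosine list did not pass at P7. Of 7 listed genes, which include the paralogue Lcmt1 and its counteracting esterase Ppme1, 1 rose and none fell in P7 DKO, with a median change of -0.01, where 17.4% of all genes tested rose. The gene that rose was Trmt12 (TYW2), from 1.8 and 1.57 to 2.78 and 2.79 RPKM (adjusted p = 0.0271, limma), and the call was lost without any 1 of the P7 libraries (adjusted p = 0.0759 to 0.159, limma). The Trmt12 call was also lost with pseudocount 0.1 or quantile normalization (adjusted p = 0.0639 and 0.0732, limma). Tyw1, which starts the ring closure of wybutosine, was at 21.3 and 21.9 RPKM in P7 Ctrl and 18.1 and 21 RPKM in P7 DKO. Lcmt1, a methyltransferase of protein phosphatase 2A, was at 65.1 and 64 against 58.9 and 62.4 RPKM (adjusted p = 0.51, limma). None of the 7 passed in P3 DKO.

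Ly6k had 2 relatives with both a low P7 control and a P7 DKO level that passed as higher. Of 40 other genes of the Ly6 family 17 were tested. In P7 DKO 2 rose and 1 fell (17.4% and 16.1% of all genes tested) with a median of -0.08, while none passed in P3 DKO. The genes that rose, Gml and Gml2, are the next genes to Ly6k on chromosome 15. Gml stood at 6.44 and 5.08 RPKM in P7 Ctrl, 20.7 and 19.1 RPKM in P7 DKO, 28.7 and 31.1 RPKM in P3 Ctrl and 28.6 and 24.6 RPKM in P3 DKO. It rose by 1.64 in P7 DKO (adjusted p = 0.00013, limma) and fell by 2.20 ± 0.17 with age in the controls (adjusted p = 0.000232, limma). Gml2 stood at 7.34 and 8.26 RPKM in P7 Ctrl, 25.7 and 25.2 RPKM in P7 DKO, 37.7 and 39.7 RPKM in P3 Ctrl and 36.9 and 37.8 RPKM in P3 DKO. For both genes the P7 DKO libraries lay below the P3 DKO libraries, while those of Ly6k overlapped. Of transcript stretches of 50 bases 18.7% in Gml and 30.8% in Gml2 also occur in other genes, including each other, so their values are not fully separate.

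With age in the controls 8 of the 17 tested Ly6 family genes fell and none rose (13.4% and 9.94% of all genes tested), with a median of -0.67. Under quantile normalization 6 fell and 2 rose. It was 4 that fell without P3 Ctrl replicate 1, and 3 without either P7 Ctrl library. Of the 10 other genes of the TEX101 and ADAM3 pathway only 5 passed the filter. Of these 5, 2 fell in P7 DKO, Clgn and Ace, where 16.1% of all genes tested fell. The Ace call was lost without any 1 of 9 libraries, all of P3 WT, P3 Ctrl, P3 DKO and P7 Ctrl with P7 DKO replicate 2 (adjusted p = 0.0623 to 0.298, limma). The Ace call was also lost with no filter, quantile normalization, median-centring or only the groups compared (adjusted p = 0.0605 to 0.0837, limma). Clgn, a testis chaperone, fell from 20.2 and 20.3 to 5.21 and 6.28 RPKM (adjusted p = 0.00017, limma). Tex101 was at 155 and 157 RPKM in P7 Ctrl and 166 and 198 RPKM in P7 DKO (adjusted p = 0.358, limma), and Adam3 was listed at 0 in both P7 Ctrl libraries and at 0.143 and 0 RPKM in P7 DKO.

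**Figure D4:**
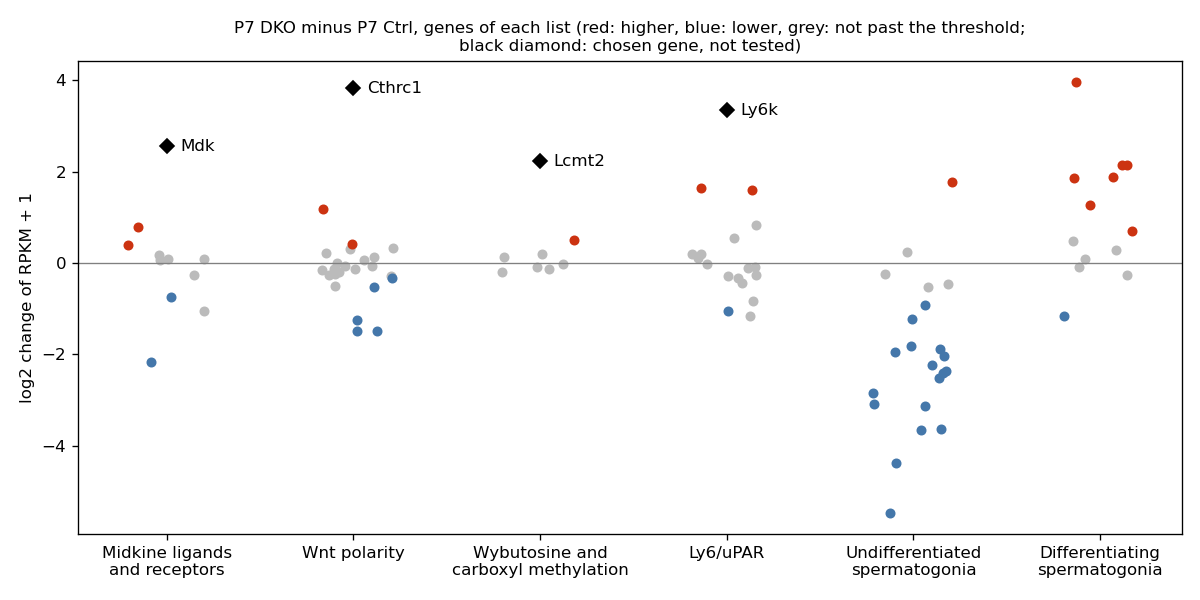
Log2 change between P7 DKO and P7 Ctrl on the log2(RPKM + 1) scale of each tested gene of 6 fixed lists (red higher, blue lower, grey not past the threshold). Black diamonds are the chosen genes, which are not tested or counted. Of 22 undifferentiated spermatogonia markers 17 fell and of 13 differentiating markers 7 rose. Of the Wnt and polarity genes 16 of 23 did not pass. Of the wybutosine list, which includes Lcmt1 and Ppme1, 6 of 7 did not pass.

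The genes on either side of the 4 loci were compared to see how far the P7 difference extended. Of the 16 nearest tested genes, 2 on each side of each locus, 7 rose and none fell in P7 DKO (17.4% and 16.1% of all genes tested), with a median change of 0.25, and none passed in P3 DKO. The count was 4 without P7 Ctrl replicate 1 or P7 DKO replicate 2 and 3 without P7 Ctrl replicate 2. It was 8 that rose and 2 that fell with pseudocount 0.1, 6 and 2 without the libraries with high Sertoli markers, 6 and 1 with quantile normalization or without P7 DKO replicate 1, and 7 and 1 with the replicate block. For the difference between P7 and P3 changes 2 of the 16 passed as higher, Gml and Gml2, and Lynx1 passed as lower. Around Cthrc1 3 of 4 rose, among them Slc25a32, a mitochondrial folate carrier whose gene ends 4109 bases away (0.98, adjusted p = 0.0074, limma). Another of the 3 is Fzd6, which ends 38743 bases away and is counted in the Wnt list as well. The Fzd6 call was lost without P7 Ctrl replicate 2. Dcaf13, also among the 3, did not pass without any 1 of the P7 libraries (adjusted p = 0.0892 to 0.125, limma). Nor did Dcaf13 pass with no filter or quantile normalization (adjusted p = 0.0514 and 0.129, limma). None of the 4 genes around Mdk passed, including Dgkz, a diacylglycerol kinase 526 bases away on the same strand, at 71.2 and 73.6 RPKM in P7 Ctrl and 68.7 and 51.9 RPKM in P7 DKO. Ambra1 passed as lower with the replicate block, without the libraries with high Sertoli markers or without P7 DKO replicate 1 (adjusted p = 0.0127 to 0.0326, limma). Chrm4 passed as higher with pseudocount 0.1, quantile normalization or only the groups compared (adjusted p = 0.0184 to 0.0438, limma). Each of the 4 genes, chosen for a large P7 change, had a larger one than any of its 4 neighbours.

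Adal, an adenosine deaminase-like gene, overlaps Lcmt2 on the opposite strand, with starts 225 bases apart, so the promoter window printed above lies inside it. Adal was at 23.6 and 21.1 RPKM in P7 Ctrl and 24 and 24 RPKM in P7 DKO (0.10, adjusted p = 0.81, limma) while Lcmt2 differed 4.97 times. Ccndbp1 (0.53, adjusted p = 0.016, limma) and Zscan29 (0.69, adjusted p = 0.049, limma) also rose in P7 DKO. The Ccndbp1 call was lost without either P7 Ctrl library or P7 DKO replicate 2 (adjusted p = 0.0588 to 0.1, limma). The Zscan29 call was lost without any 1 of 9 libraries, which were all of P3 WT, P3 Jmjd1aKO, P3 DKO and P7 Ctrl with P7 DKO replicate 2 (adjusted p = 0.0558 to 0.316, limma), and its value was 0.39 without the last. It was also lost with no filter, quantile normalization, only the groups compared and without the libraries with high Sertoli markers (adjusted p = 0.0573 to 0.11, limma). The sources used here do not say whether strand was used in counting. Of 50-base stretches of the Lcmt2 transcripts 5.37% are shared with Adal, and 32.7% of those of Ly6k are shared with the antisense gene Gm17189, so reads of these pairs may not be separable.

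**Figure D5:**
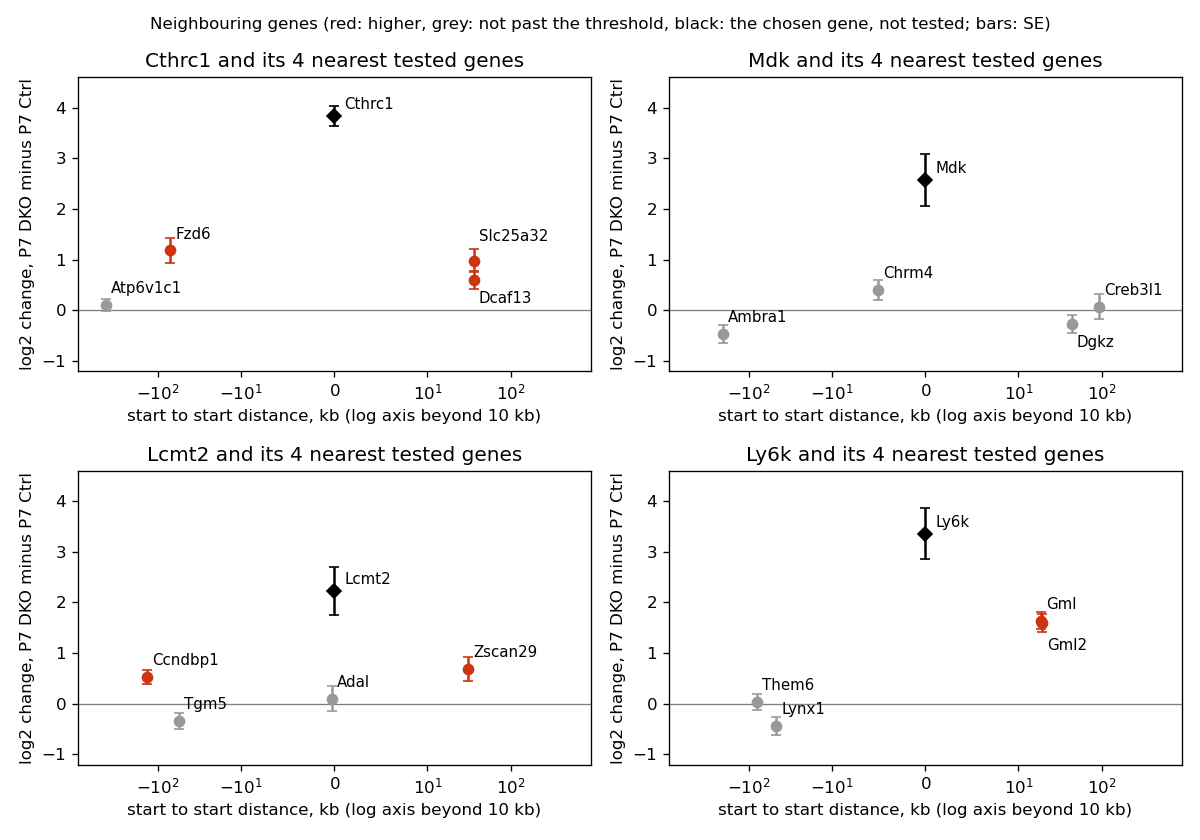
Log2 change ± SE between P7 DKO and P7 Ctrl of each of the 4 genes (black, chosen by this contrast and not tested) and of the 2 nearest tested genes on each side (red higher, grey not past the threshold). The horizontal axis is the distance between gene starts in kb, on a log axis beyond 10 kb. Of the 16 neighbours 7 passed as higher, and each neighbour lies below the chosen gene of its panel.

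By likeness of pattern over the 14 libraries, the genes nearest to each of the 4 differed from one to the next. Cthrc1 was most like Pdss1 (Pearson r = 0.985), Rhox13 (0.983) and Atp6v0b (0.983). Rhox13 stood at 21.2 and 20.8 RPKM in P7 Ctrl, 87.6 and 107 RPKM in P7 DKO and 34.5 and 33.8 RPKM in P3 DKO. Mdk was most like Bola2 (0.979), Fam83a (0.962) and D8Ertd738e (0.952). Lcmt2 was most like Phkg1 (0.987), Lrrc2 (0.984) and Xaf1 (0.981), and Phkg1 was also high in P3 WT (22.7 and 13.8 RPKM) and low in P3 DKO (4.44 and 5.12 RPKM). Ly6k was most like Otud6a (0.974), Tmem128 (0.969) and AU040320 (0.962), and Otud6a was at 0.313 and 0.432 RPKM in P7 Ctrl, 4.76 and 7.58 RPKM in P7 DKO and 6.84 and 7.29 RPKM in P3 DKO. These genes were found by their pattern, so their values are no test of it.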

How the data were processed

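RNA libraries (AllPrep DNA/RNA Micro and TruSeq Stranded mRNA LT kits, per the labels) were deposited as RPKM values per gene symbol by the authors. The submitters' processing notes name TopHat2 2.1.1, Cufflinks 2.1.1 and mm10. The annotation and the use of strand are not given in the sources used here. Depth was estimated from steps between low RPKM values of genes with 1 transcript. Fragment numbers came within 0.2 of an integer for at least 65.3% of the genes used per library (40% for a uniform spread). The depth was chosen to bring these same numbers near integers, so that share is raised by the choice and is no test of the depth. Values were tested as log2(RPKM + 1) with limma 3.58.1 (trended eBayes, R 4.3.3), 1 coefficient per group over 14 libraries and 7 residual degrees of freedom. A gene needed 1 RPKM or more in 2 libraries or more to be tested (14772 genes, with 9568 removed). Tests were two-sided, with Benjamini-Hochberg adjustment within each of 7 comparisons at 0.05. Fragments per gene were approximated from the longest GENCODE M21 transcript (GRCm38), which held 23306 of the symbols. The fit was tested on simulated data.

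The 4 genes and the lists were chosen with earlier results of these data known. Beside the 4, the genes named are Kdm3a, Kdm3b, up to 4 passing genes of each list by size of change (the 2 highest by level where fewer than 2 passed), 2 tested neighbours on each side and the 3 genes of most similar pattern. Predicted genes are not named among these. Ptn, Tex101, Adam3 and Tyw1 were added after their values were seen. Pdgfra, Ptprc and Lrp1 were also named outside the naming rule. Clu, Inha, Col1a1 and Fcer1g are from the 2 highest markers by level of their somatic lists. Alternatives were another pseudocount, no filter, quantile normalization, median-centring, a replicate block, only the groups compared, leaving out the 2 libraries with high Sertoli markers, and leaving out each library. The planned tests of the 4 genes with age in the controls are not printed, since the choice used those libraries. A group of 1 is then assumed to vary like the others. Groups of 2 allow no permutation test that reaches 0.05.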

Additional observations from a re-analysis of the deposited data

Results flagged for a closer look

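The difference between the DKO change at P7 and that at P3 was tested for 39 other genes named by rule (limma, log2 scale, adjusted p below 0.05), and 21 passed, 9 with a higher and 12 with a lower change at P7. Over all genes tested the shares were 12.2% and 10.7%. Most of the 39 were named because they passed at P7, so the count is a description of named genes. The groups of 2 libraries allow no test for an outlying library.

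Of 13 genes of differentiating spermatogonia 5 passed as higher for this difference and none as lower. Among those named for their P7 change the differences were 3.14 for Dmrtb1, 2.69 for Sohlh2, 2.44 for Stra8 and 1.76 for Rhox13. Of 22 genes of undifferentiated spermatogonia 1 passed as higher and 13 as lower, and among those named for their P7 change the differences were -4.60 for Plvap, -3.76 for Foxc2, -3.26 for T and -2.67 for Lhx1.

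Beside the Ly6k locus the differences were 1.80 for Gml, 1.64 for Gml2 and -0.89 for Lynx1, and in the same family -1.0 for Ly6g6e. The testis chaperone Clgn had a difference of -1.95. Among midkine receptor genes the differences were 1.31 for Sdc1, which fell at P3 and rose at P7, -1.39 for Sdc4 and 0.72 for Ncl. Among genes of Wnt and planar polarity signalling they were -1.82 for Fzd2, -1.47 for Wnt5b and -1.31 for Prickle1. The wybutosine gene Trmt12 had a difference of 0.67. The targeted gene Kdm3a had one of -0.61, with a larger loss of signal at P7 than at P3.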

How the results depend on the processing

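The P7 DKO count was 4954 genes and ranged from 4316 to 5900 over the alternatives other than leaving out 1 library. The count for the difference was 3383, and it and the P7 DKO count stayed within 1.5 times under each of these. With pseudocount 0.1 the count was 183 genes for P3 Ctrl against P3 WT (main 104), 3 for P3 Jmjd1aKO (5) and 365 for P3 DKO (661). Without the filter it was 1541 for P3 DKO. With quantile normalization it was 47 for P3 WT and 9 for P3 Jmjd1aKO. With only the groups compared it was 20, 9, 9 (3 for P3 Jmjd1bKO in the main fit) and 17 for P3 WT, P3 Jmjd1aKO, P3 Jmjd1bKO and P3 DKO. Without both libraries with high Sertoli markers it was 2199, 10, 7 and 1931 for these and 5206 for age (3441). The replicate block gave 776 for P3 WT, 3 for P3 Jmjd1aKO and 1140 for P3 DKO. The cause was not tested. Same-numbered libraries correlated at -0.13 to 0.58 over 21 pairs of groups (median 0.07), so the numbers do not show a pairing, and the block changed no call of the 4 genes.

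Leaving out each library gave 4 to 822 genes for P3 WT, 3 to 8 for P3 Jmjd1aKO, 3 to 7 for P3 Jmjd1bKO, 10 to 921 for P3 DKO, 2619 to 5325 for P7 DKO, 486 to 4156 for age and 1635 to 3810 for the difference. The split of higher and lower calls moved with scaling. Under median-centring it was 277 and 503 for P3 DKO (main 322 and 339) and 2269 and 1250 for the difference (main 1800 and 1583), and under quantile normalization 1587 and 1424 for age (main 1468 and 1973).

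The P7 DKO change of the 4 genes kept its direction in every alternative run. Leaving out each library gave 3.66 to 4.02 for Cthrc1, 2.40 to 2.73 for Mdk, 2.05 to 2.41 for Lcmt2 and 3.01 to 3.71 for Ly6k. With pseudocount 0.1 it was 4.70 for Cthrc1 and 4.53 for Ly6k. Some small changes in single knockouts reversed. Cthrc1 in P3 Jmjd1aKO was -0.10 with quantile normalization. Without both libraries with high Sertoli markers Mdk was -0.30 and Lcmt2 -0.48 in P3 Jmjd1aKO, and Lcmt2 -0.19 and Ly6k 0.21 in P3 Jmjd1bKO. Leaving out each library gave -0.06 to 0.17 for Cthrc1, -0.30 to 1.22 for Mdk, -0.48 to 0.68 for Lcmt2 and -0.44 to 0.55 for Ly6k in P3 Jmjd1aKO. In P3 Jmjd1bKO it gave -0.16 to 0.14 for Cthrc1, -0.19 to 1.30 for Lcmt2 and -1.42 to 0.21 for Ly6k, and -0.13 to 0.21 for the P7 DKO change of Them6. Low fragment numbers limit Ly6k most, with about 6 and 16 fragments in the P7 Ctrl libraries.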

Other observations

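Ptprz1, a receptor phosphatase that binds midkine and pleiotrophin, was higher in P3 DKO than in any other group. It stood at 1.68 and 2.13 RPKM in P3 DKO against 0.431 and 0.374 RPKM in P3 Ctrl (1.04 ± 0.21, adjusted p = 0.0317, limma). At P7 it stood at 0.142 and 0.159 RPKM in P7 DKO and 0.0641 and 0.0782 RPKM in P7 Ctrl (adjusted p = 0.764, limma). Both P7 DKO libraries were thus above both P7 Ctrl libraries. These levels lay far below the 1 RPKM added before the log, which flattens such a change, so the lack of a call says little. The difference between these changes was -0.94 ± 0.30 (adjusted p = 0.0459, limma), and it rests in part on those flattened P7 values. The gene was picked after its values were seen. Its calls were not followed through the alternatives, in which the P3 DKO count varied widely. Lrp1, another midkine receptor gene, differed between the P7 DKO libraries, at 18.1 and 4.61 RPKM.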
